A study of Mus musculus with 6 samples.

Results

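The genes described here are the zinc finger genes of the mouse named Zfp, Zscan or Zkscan followed by a number, apart from those on chromosomes 13 and 17. They were taken by name and chromosome, with the RNA-binding genes Zfp36, Zfp36l1 and Zfp36l2 left out. The rule gave 297 genes of the 16911 in the table, 283 named Zfp, 7 named Zscan and 7 named Zkscan. Most zinc finger proteins of this naming carry arrays of C2H2 fingers, but the rule also took entries of another kind. Among them were Zfp36l3, the pseudogenes Zfp862-ps and Zfp133-ps, and the opposite-strand transcript Zfp652os. All 4 of these were too low to test. The other members were not sorted by kind of finger. Chromosome 7 carried 90 of the 297 genes, chromosomes 4 and 8 carried 23 each, and 86 further zinc finger genes lay on chromosomes 13 and 17.

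The RNA came from naive CD4 T cells, lymphocytes that have not yet met antigen, of Trim28 KO mice (3 libraries) and of their WT littermates (3 libraries), all on the C57BL/6 background. The cells were purified on magnetic beads followed by a flow cytometric sort. The allele used, the promoter of any Cre, the age of the mice and whether each library came from its own mouse are not given in the sources used here. The p-values below therefore measure the spread between these libraries, part of which may be technical. Values by library are written in the order of replicates 1, 2 and 3, and a normalized read is 1 read divided by the authors' size factor for that library.

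Many C2H2 zinc finger proteins carry a KRAB domain, a short stretch that binds Trim28 once the fingers have found their DNA sequence. Trim28 then brings in the histone methyltransferase Setdb1 and heterochromatin protein 1, which place and read H3K9 trimethylation. The family is spread over the genome in clusters of related genes, and in human cells Trim28 has been found on the zinc finger genes themselves, so the family supplies partners of Trim28 and is among its bound genes. The comparison of Trim28 KO with WT cells asks which of these genes changed in level when Trim28 was missing.

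Depth, as the sum of recovered reads, ran from 22005759 to 44372701 in the Trim28 KO libraries and from 23438722 to 40586195 in the WT libraries. Trim28 itself had 737.5, 628.1 and 1247 normalized reads in Trim28 KO cells, against 8429, 8287 and 9428 in WT cells, or 9.99% of the WT mean, with a log2 fold change of -3.38 ± 0.22 (SE) and an adjusted p of 0.000135. The 8 naive CD4 T cell markers summed to between 119983 and 156129 normalized reads in Trim28 KO cells and to between 147130 and 162346 in WT cells. Trim28 KO library 3 stood apart from the other libraries. Its 5 B cell markers summed to 1465 normalized reads, against 188.0 and 192.1 in the other two Trim28 KO libraries and 170.6 to 320.7 in WT. Its 2 CD8 markers summed to 4416, against 708.2 and 755.4 in the other two and 561.2 to 1065 in WT, and its 5 effector and memory markers to 1919, against 266.7 and 274.2 in the other two and 232.2 to 356.1 in WT. NK and myeloid sums were also highest there, at 1698 and 448.7 normalized reads. Trim28 KO libraries 1 and 2 had NK sums of 426.2 and 394.9, against 259.4 to 352.2 in WT. The 4 regulatory T cell markers summed to 1946, 1857 and 4200 in Trim28 KO, against 1332 to 1732 in WT. For the NK and regulatory T cell markers, all 3 Trim28 KO libraries thus lay above all 3 WT libraries. Y-linked transcripts summed to 12677 normalized reads in Trim28 KO library 2 and to 13625 in WT library 1, while the other 4 libraries had between 0 and 2.39. Xist, which is transcribed from an inactive X chromosome, was present at 12289 to 28062 normalized reads in all 6. The main counts and estimates below are also given without library 3 of the Trim28 KO group or without the libraries with Y-linked reads. In bulk RNA, fewer cells of a kind and less RNA per cell cannot be told apart.

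Zinc finger genes outside chromosomes 13 and 17 were expressed broadly in these T cells, and few passed the test in either direction. A mean of at least 10 normalized reads over the 6 libraries was reached by 240 of the 297 genes, with means between 11.3 and 23210 and a median of 590.0. Of these 240, 2 rose in Trim28 KO cells (adjusted p under 0.05 by limma, with Benjamini-Hochberg adjustment over all 13022 rows tested), none fell and 238 did not pass. The genes that rose were Zfp354c and Zfp365. Across all rows tested, 1.51% passed, 1.19% as rises and 0.315% as falls, so the 0.833% among the zinc finger genes was no higher than the background. With limma-voom on the recovered reads 2 of the 240 rose and none fell, where 126 of all 13022 rows rose and 34 fell.

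The spread of the estimates shows how far this holds. The 95% interval of the log2 fold change lay inside a 2-fold change in either direction for 200 of the 240 genes (83.3%), against 74.7% of all rows. Precision followed the level of the gene. Among the 127 genes with a mean of 500 normalized reads or more the interval lay inside 2-fold for 124 (97.6%). Among the 78 with a mean between 50 and 500 it did so for 66, and among the 35 under 50 for 10. A 2-fold change was thus not within the interval for nearly all of the well-expressed members, while for most of the low ones it could not be told from no change at this depth.

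**Figure D1:**
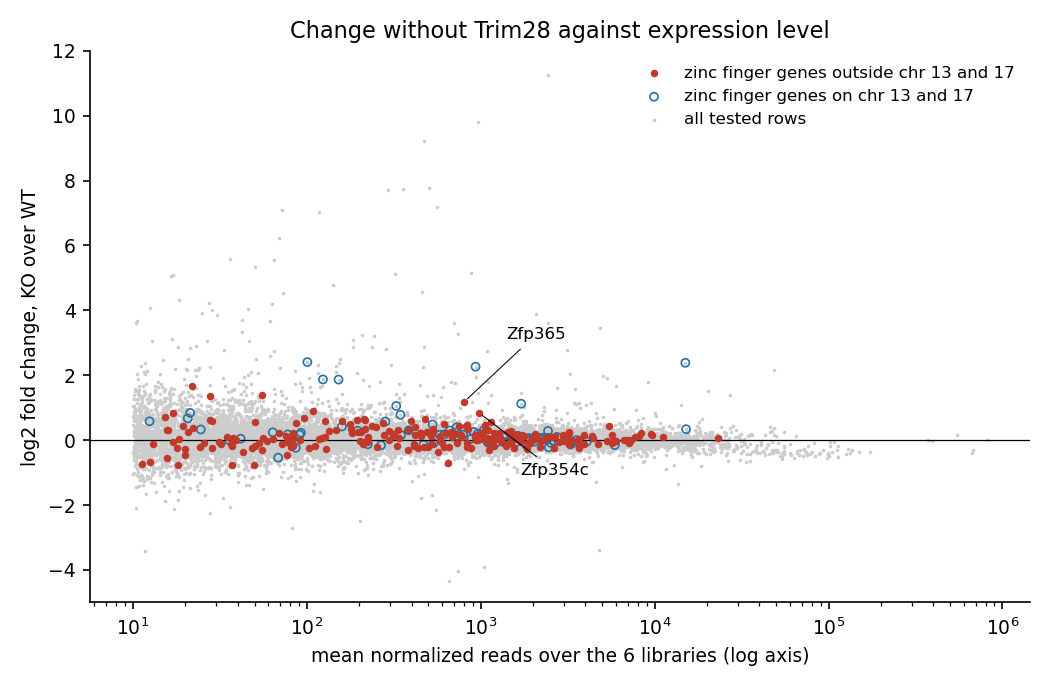
Log2 fold change of Trim28 KO over WT (vertical axis) against the mean normalized reads of the 6 libraries (horizontal log axis). Filled red points are the 240 tested zinc finger genes outside chromosomes 13 and 17, open blue circles the 80 tested on those chromosomes, and grey points all 13022 tested rows. Most red points lie near the zero line, and Zfp354c and Zfp365 are named. Several open circles lie above 1, and so do the red points of Zfp580 (1.67), Zfp704 (1.40), Zfp345 (1.36) and Zfp365 (1.19).

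Estimates above 0 outnumbered those below 0 among the 240 genes, and this difference in share from all rows was not tested. The log2 fold change was above 0 for 143 genes and below 0 for 97, or 59.6% above, against 50.4% of all rows. The median was 0.06 with quartiles of -0.08 and 0.22, against a median of 0.0019 over all rows with quartiles of -0.15 and 0.19. At an unadjusted p under 0.05, 32 of the 240 passed (13.3%, against 12.7% of all rows), 24 of them higher and 8 lower in Trim28 KO cells, where all rows divided into 6.84% higher and 5.84% lower. All 3 Trim28 KO libraries lay above all 3 WT libraries for 33 genes (13.8%, against 9.21% of all rows) and below them for 12 (5.0%, against 9.58%). The 35 genes with a mean under 50 went the other way, with 15 above 0 and a median of -0.08.

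By library, the levels were as follows. The zinc finger genes together took 1.12%, 1.17% and 1.10% of all normalized reads in Trim28 KO libraries 1, 2 and 3, and 1.03%, 1.05% and 1.02% in WT. All 3 Trim28 KO libraries were above all 3 WT libraries in that share. The median gene, set against its own WT mean on the log2 scale, stood at 0.08, 0.15 and -0.01 in the Trim28 KO libraries and at 0.03, 0.05 and -0.07 in the WT libraries, so by this measure the groups overlapped and library 3 of the Trim28 KO group was below 0. On leaving out 1 library the median over the genes ran from 0.03 (without Trim28 KO library 2, 55.6% above 0) to 0.10 (without Trim28 KO library 3, 67.5% above 0), and it was 0.04 among the libraries without Y-linked reads. Scaling moved it as well. It was 0.11 when every library was given the same total, where the median of all rows was 0.06, and 0.03 after quantile normalization, where that of all rows was -0.04.

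Zfp354c, on the reverse strand of chromosome 11 (mm10, chr11:50811085-50827731), was one of the genes that rose. It encodes a KRAB zinc finger protein whose rat counterpart, AJ18, was described as a repressor in bone-forming cells. Zfp354c had 1350, 1300 and 1114 normalized reads in Trim28 KO cells, against 707.0, 731.8 and 651.1 in WT cells. The lowest Trim28 KO library lay well above the highest WT library. The means were 1255 ± 124 in Trim28 KO and 696.6 ± 41.3 in WT (SD, n = 3 each), 1.80-fold apart, with a log2 fold change of 0.84 ± 0.11 (SE, 95% interval 0.59 to 1.10) and an adjusted p of 0.00556.

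Zfp354c was the one member of its cluster with appreciable RNA. Zfp879, Zfp454, Zfp354b and Zfp354a, all within 300 kb of it by their start sites, stayed under the level that was tested. Zfp879, the nearest, had 8.57, 4.37 and 6.38 normalized reads in Trim28 KO cells and 1.39, 4.40 and 5.41 in WT cells, and the ranges overlapped. The close paralogue Zfp354b had 4.998, 2.91 and 1.59 in Trim28 KO and 1.39, 0 and 1.54 in WT. The nearest tested genes on either side were Grm6, a glutamate receptor gene, at 0.71 ± 0.37 log2 (SE, adjusted p = 0.487), and Rufy1, an endosomal adaptor gene, at 0.08 ± 0.09 (adjusted p = 0.750). Neither passed, and Grm6 varied within the groups, with 142.1, 74.3 and 59.0 normalized reads in Trim28 KO and 40.4, 75.9 and 45.6 in WT. Adamts2, a procollagen-processing protease gene named here after its values were seen, was also low there, with 7.14, 7.29 and 6.38 in Trim28 KO and 0, 0 and 0.772 in WT.

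Zfp365, on the reverse strand of chromosome 10 (chr10:67886105-67912662), rose by more. Its human counterpart ZNF365 is known for a part in genome stability and the recovery of stalled replication forks. Zfp365 had 1038, 1400 and 933.3 normalized reads in Trim28 KO cells, against 524.3, 484.2 and 450.3 in WT cells. All Trim28 KO libraries were above all WT libraries, and library 2 was the highest. The means were 1124 ± 245 in Trim28 KO and 486.3 ± 37.0 in WT (SD, n = 3 each), 2.28-fold apart, with a log2 fold change of 1.19 ± 0.16 (SE, 95% interval 0.83 to 1.54) and an adjusted p of 0.00606. Its tested neighbours did not pass. Ado, a thiol dioxygenase gene, stood at 0.10 ± 0.09 (adjusted p = 0.696), and Arid5b, which encodes a partner of the histone demethylase Phf2, at 0.21 ± 0.10 (adjusted p = 0.434).

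Both calls were made in each of the 6 fits that left out 1 library. All rows passing came to 1.03%, 0.865% and 4.3% without Trim28 KO libraries 1, 2 and 3, and to 0.949%, 1.06% and 0.975% without WT libraries 1, 2 and 3. The log2 fold change then ran from 0.79 to 0.93 for Zfp354c and from 1.02 to 1.31 for Zfp365. Neither passed among the 2 Trim28 KO and 2 WT libraries without Y-linked reads, at 0.83 with an adjusted p of 0.251 for Zfp354c and 1.07 with an adjusted p of 0.0821 for Zfp365, with 0.282% of all rows passing there and 0.275% as rises. Zfp365 also did not pass without the mean-variance trend (adjusted p = 0.0548). The exact two-sided permutation p was 0.1 for each, the smallest that 3 libraries against 3 can give.

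The promoter of Zfp365 is shown because this gene changed most among those that passed. The 300 bases from RefSeq (GRCm38.p6, chr10:67912613-67912912, reverse strand) run from 250 bases before the annotated start to 50 after it, and the capitals mark TATAAA, the core of a TATA box.

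Zfp365: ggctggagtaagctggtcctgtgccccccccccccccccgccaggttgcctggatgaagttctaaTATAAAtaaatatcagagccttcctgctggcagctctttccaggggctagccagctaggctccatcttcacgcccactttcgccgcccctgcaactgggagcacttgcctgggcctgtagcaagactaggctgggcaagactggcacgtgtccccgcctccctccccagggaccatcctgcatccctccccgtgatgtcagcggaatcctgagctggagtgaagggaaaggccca

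The TATAAA run begins 185 bases before the annotated start. The letters TATAAA, on either strand, were found in 5.5% of the 200 promoters on hand among the 240 tested zinc finger genes and in 14.2% of the 27025 promoters of all genes. The Zfp365 window holds 8 CpG dinucleotides, against a median of 16 in the tested zinc finger promoters and 7 in all promoters.

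**Figure D2:**
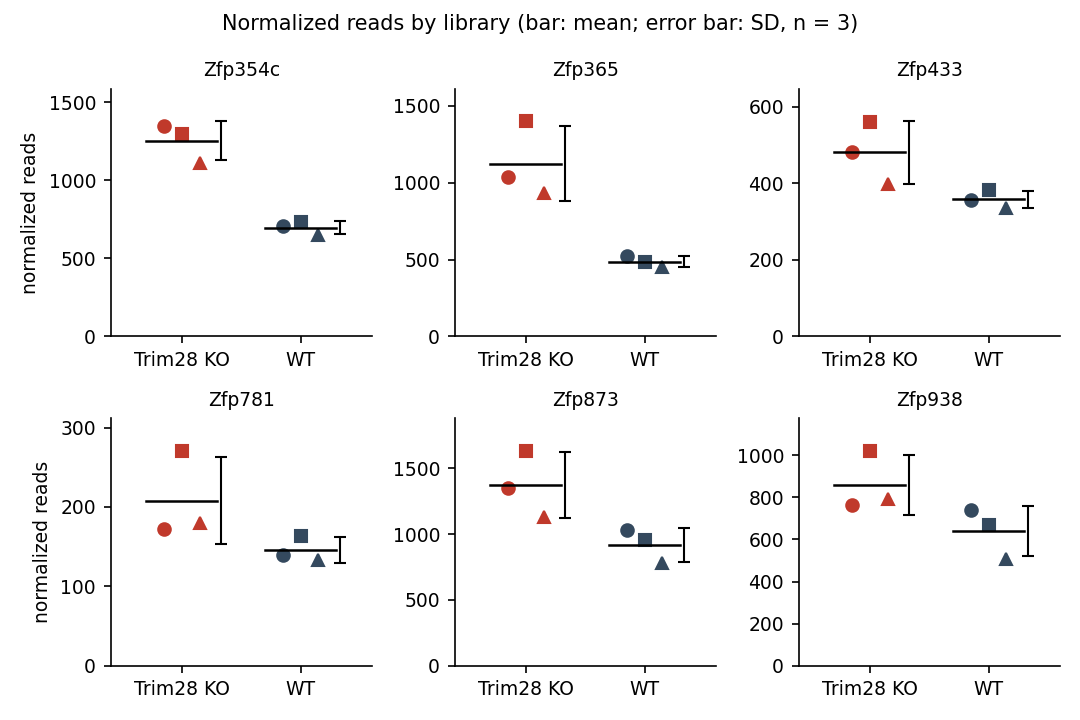
Normalized reads by library for Zfp354c, Zfp365 and the 4 zinc finger genes of the chromosome 10 cluster, with Trim28 KO libraries in red on the left and WT libraries in blue on the right of each panel. Circles, squares and triangles are replicates 1, 2 and 3, the horizontal bar is the mean and the error bar the SD (n = 3). In all 6 panels the Trim28 KO points lie above the WT points, by the widest margin for Zfp354c and Zfp365. The genes were picked by their values, and 9.21% of all rows had groups apart in this direction.

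The members next in order of p were mostly higher in Trim28 KO cells and did not pass. Zfp827 had 1112, 1237 and 1351 normalized reads in Trim28 KO cells, against 914.7, 928.8 and 814.1 in WT cells, with a log2 fold change of 0.48 ± 0.11 (SE, adjusted p = 0.0965). Its human counterpart ZNF827 brings the NuRD complex to telomeres. Zscan18 had 223.5, 260.8 and 301.3 in Trim28 KO and 156.2, 175.0 and 159.9 in WT, at 0.67 ± 0.16 (adjusted p = 0.101). Zfp112 had 87.1, 154.5 and 188.1 in Trim28 KO and 76.7, 58.3 and 84.2 in WT, at 0.91 ± 0.30 (adjusted p = 0.243), with library 1 close to the WT values. In these 3 genes Trim28 KO library 3 was the highest, and without it the log2 fold changes were 0.41 for Zfp827, 0.56 for Zscan18 and 0.68 for Zfp112.

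Zfp11, Zfp667 and Zfp383 had groups that did not overlap. Zfp11 had 197.8, 199.6 and 176.9 normalized reads in Trim28 KO cells and 128.3, 127.6 and 120.5 in WT cells, at 0.60 ± 0.14 (SE, adjusted p = 0.108). Zfp667 had 270.6, 285.6 and 227.9 in Trim28 KO and 178.5, 179.4 and 149.1 in WT, at 0.63 ± 0.15 (adjusted p = 0.116). Zfp383 had 264.2, 241.9 and 197.7 in Trim28 KO and 135.3, 175.0 and 149.8 in WT, at 0.61 ± 0.17 (adjusted p = 0.172). In each, library 3 was the lowest of the Trim28 KO libraries. Zfp654 was the most abundant gene among the 24 with the smallest p, with 6142, 7489 and 5333 in Trim28 KO and 4779, 4941 and 4106 in WT, at 0.45 ± 0.13 (adjusted p = 0.197). Zfp867, Zfp128, Zfp551, Zfp974, Zfp174, Zfp784 and Zfp316 had log2 fold changes between 0.33 and 0.52 and adjusted p between 0.183 and 0.319. The groups were apart in all 7. The genes named in this paragraph were taken for their small p, a choice that favours groups that are apart. Of all rows, 9.21% had groups apart with Trim28 KO higher. Zfp300, on the X chromosome, stood at 0.59 ± 0.23 (adjusted p = 0.336), and its groups overlapped.

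Trim28 KO library 3 had the highest sums of B cell, CD8, NK and myeloid markers. Leaving it out moved the count of called members to 7, all of them rises (2.92% of the 240 tested). All rows passing then moved to 4.3% and rises among them to 2.75%. The share among zinc finger genes was therefore again near the background. The 5 added genes were Zfp873 at 0.70 log2 (adjusted p = 0.0269), Zfp654 at 0.56 (adjusted p = 0.0302), Zfp667 at 0.72 (adjusted p = 0.0416), Zfp395 at 1.06 (adjusted p = 0.0435) and Zfp35 at 0.52 (adjusted p = 0.0470). Zfp395, named here because of that call, had 914.6, 574.2 and 307.7 normalized reads in Trim28 KO cells and 276.1, 480.9 and 314.4 in WT cells, so library 3 lay within the WT range. Zfp35 had 1331, 1269 and 706.2 in Trim28 KO and 906.4, 1027 and 806.4 in WT, with library 3 the lowest of all 6. The part of the other cells' RNA in these differences was not tested. Without Trim28 KO library 3, Zfp354c stood at 0.93 and Zfp365 at 1.31.

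Among the 24 genes with the smallest p, 5 were lower in Trim28 KO cells, and none of them passed. Zfp937 had 463.4, 609.1 and 401.7 normalized reads in Trim28 KO cells, against 909.2, 914.4 and 597.1 in WT cells, at -0.71 ± 0.21 (SE, adjusted p = 0.182). Trim28 KO library 2 and WT library 3 overlapped. Zfp747 had 994.6, 986.6 and 1018 in Trim28 KO and 1252, 1165 and 1257 in WT, at -0.29 ± 0.09 (adjusted p = 0.202), a small difference with tight groups. Zfp7 was similar, with 1676, 1693 and 1618 in Trim28 KO and 2104, 2025 and 1911 in WT, at -0.28 ± 0.08 (adjusted p = 0.207). Zfp622, which acts in the maturation of the large ribosomal subunit, had 3076, 3212 and 3768 in Trim28 KO and 3942, 3880 and 4098 in WT, at -0.25 ± 0.10 (adjusted p = 0.329). Zfp513 was low, with 42.1, 33.5 and 33.5 in Trim28 KO and 73.9, 50.6 and 64.1 in WT, at -0.76 ± 0.25 (adjusted p = 0.25). A further row of Zfp513, from another RefSeq transcript, did not show this difference. It had 38.6, 32.1 and 37.5 in Trim28 KO and 30.7, 36.3 and 48.7 in WT, at -0.07 ± 0.28 (adjusted p = 0.935).

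**Figure D3:**
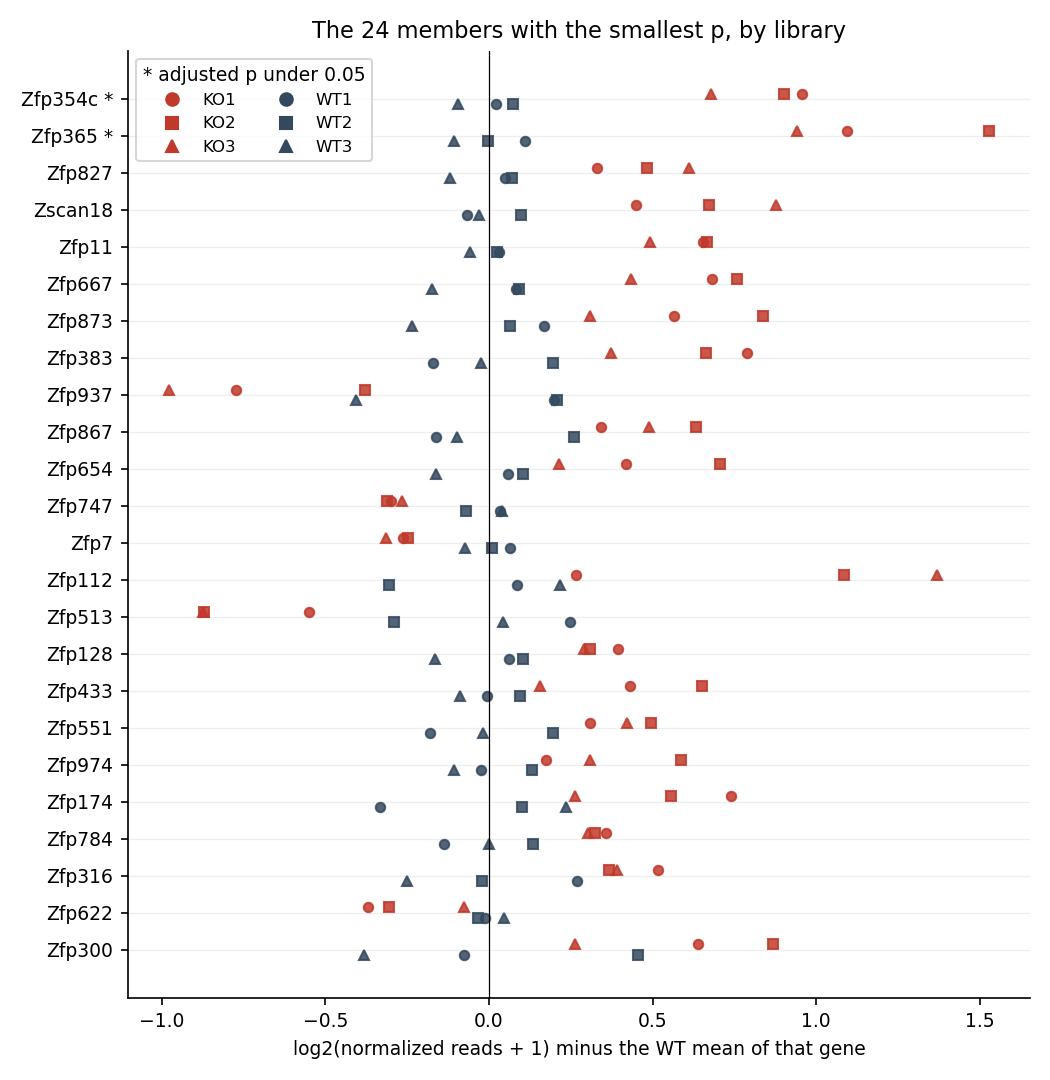
The 24 zinc finger genes with the smallest p, in that order from the top, each library drawn as log2(normalized reads + 1) minus the WT mean of that gene. Red symbols are Trim28 KO and blue symbols WT libraries, with circles, squares and triangles for replicates 1, 2 and 3, and an asterisk marks an adjusted p under 0.05. Of the 24 genes, 19 lie to the right of zero in Trim28 KO cells and 5 to the left, and Zfp354c and Zfp365 are set farthest from their WT values relative to the spread.

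The largest estimates belonged to genes with few reads and wide intervals. They are named here because of their values. Zfp580 had 38.6, 24.8 and 28.7 normalized reads in Trim28 KO cells, against 1.39, 17.6 and 20.1 in WT cells, and its log2 fold change of 1.67 ± 0.79 (SE, adjusted p = 0.435) rests on the single low WT library. Zfp704 had 34.3, 23.3 and 207.2 in Trim28 KO and 11.2, 22.01 and 33.99 in WT, at 1.40 ± 0.76 (adjusted p = 0.503), where library 3 alone set the estimate. Zfp345 had 26.4, 62.7 and 27.1 in Trim28 KO and 11.2, 31.9 and 6.18 in WT, at 1.36 ± 0.60 (adjusted p = 0.400). Of the 3, Zfp580 alone had groups that did not overlap.

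The 4 members of a cluster on chromosome 10 were Zfp433, Zfp781, Zfp873 and Zfp938 (chr10:81704747-82241280). Each was higher in every Trim28 KO library than in every WT library, as were 9.21% of all rows. None of the 4 passed after adjustment. Here a cluster means at least 4 of the 297 genes with gaps of at most 500 kb. Zfp873 had 1354, 1636 and 1133 normalized reads in Trim28 KO cells, against 1029, 956.3 and 777.8 in WT cells, at 0.57 ± 0.16 (SE, adjusted p = 0.164). Zfp433 had 481.9, 561.0 and 398.5 in Trim28 KO and 355.6, 381.8 and 336.0 in WT, at 0.41 ± 0.15 (adjusted p = 0.285). In both genes library 2 was the highest and library 3 the lowest of the Trim28 KO group. Zfp938 had 762.5, 1023 and 790.6 in Trim28 KO and 740.4, 670.2 and 509.0 in WT, at 0.43 ± 0.17 (adjusted p = 0.336). Zfp781 had 172.8, 271.0 and 179.3 in Trim28 KO and 139.4, 164.0 and 132.9 in WT, at 0.49 ± 0.20 (adjusted p = 0.369). The unadjusted p ran from 0.00607 to 0.0428, where 12.7% of all rows had one under 0.05. The median log2 fold change of the 4 was 0.46. Zfp873 and Zfp433 were described for their small p, and Zfp781 and Zfp938 were added after their values were seen. All 4 were thus picked by their values. Trim28 KO library 2, which holds Y-linked reads, was the highest in all 4 genes. Without it the log2 fold changes were 0.44 for Zfp873, 0.29 for Zfp433, 0.30 for Zfp938 and 0.28 for Zfp781, with a median of 0.30. Zfp938 also stood at 0.27 without WT library 3. Among the libraries without Y-linked reads the median was 0.35 and all 4 remained above 0, with none called.

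These genes are related copies, and the sources used here do not give how reads matching several of them were counted, so their values may share reads. Of the 29 other genes tested within 500 kb of the cluster, 12 were higher and 17 lower in Trim28 KO cells. These are the genes outside the name rule, and whether any of them encodes zinc fingers was not checked. Their median log2 fold change was -0.06 with a range of -1.04 to 0.95. An unadjusted p under 0.05 was found for 6 of the 29, and for 12.7% of all rows. Of the 6, AU041133, Gm10778 and BC025920 were higher and Ncln, S1pr4 and Tdg lower. AU041133, between Zfp873 and Zfp938, stood at 0.44 ± 0.18 (SE, adjusted p = 0.355). Gm10778, next to Zfp433 on the lower-coordinate side, stood at 0.68 ± 0.23 (adjusted p = 0.263). These genes are named after their values were seen. All 6 tested members on chromosome 10, Zfp365 among them, were above 0, with a median of 0.46. Over all 240 genes 59.6% were above 0.

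Their promoters are shown because the 4 genes are neighbours whose estimates were all above 0. The sequences are from RefSeq (GRCm38.p6), with 1 window shown where Zfp873 and Zfp938 have 2 listed. They run from 250 bases before an annotated transcript start to 50 after it. They are Zfp433 at chr10:81704575-81704874 (forward strand), Zfp781 at chr10:81930463-81930762 (reverse), Zfp873 at chr10:82047873-82048172 (forward) and Zfp938 at chr10:82241231-82241530 (reverse). Capitals mark ACTTCC or its reverse complement GGAAGT, the core of sites bound by ETS factors.

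Zfp433: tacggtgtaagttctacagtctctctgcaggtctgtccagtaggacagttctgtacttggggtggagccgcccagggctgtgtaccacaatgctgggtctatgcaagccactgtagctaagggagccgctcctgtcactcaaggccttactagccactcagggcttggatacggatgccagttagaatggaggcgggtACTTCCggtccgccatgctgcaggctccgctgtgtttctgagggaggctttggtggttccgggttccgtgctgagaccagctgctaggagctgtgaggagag

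Zfp781: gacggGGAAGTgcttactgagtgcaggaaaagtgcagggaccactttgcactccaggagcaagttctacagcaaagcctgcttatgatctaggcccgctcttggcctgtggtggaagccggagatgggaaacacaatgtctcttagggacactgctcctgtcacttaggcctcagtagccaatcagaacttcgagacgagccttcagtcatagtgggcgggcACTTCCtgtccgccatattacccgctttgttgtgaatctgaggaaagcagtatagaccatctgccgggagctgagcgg

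Zfp873: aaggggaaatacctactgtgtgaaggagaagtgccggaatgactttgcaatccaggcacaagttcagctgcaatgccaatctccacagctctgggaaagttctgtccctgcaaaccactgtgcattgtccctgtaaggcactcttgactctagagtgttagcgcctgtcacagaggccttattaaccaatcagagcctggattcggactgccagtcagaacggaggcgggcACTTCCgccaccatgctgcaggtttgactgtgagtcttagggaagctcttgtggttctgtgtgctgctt

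Zfp938: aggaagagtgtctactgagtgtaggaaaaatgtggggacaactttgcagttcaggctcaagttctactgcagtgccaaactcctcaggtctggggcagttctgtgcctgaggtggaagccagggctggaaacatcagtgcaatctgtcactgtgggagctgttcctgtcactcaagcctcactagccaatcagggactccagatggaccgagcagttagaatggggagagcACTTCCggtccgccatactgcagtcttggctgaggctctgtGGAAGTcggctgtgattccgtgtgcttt

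In each of the 4, an ACTTCC run lies shortly before the transcript start on which the window is set. It begins 52, 28, 19 and 19 bases before that start in Zfp433, Zfp781, Zfp873 and Zfp938. For Zfp433 and Zfp873 that start lies inside the gene, which is listed from chr10:81704747 and chr10:82048084. Measured from these gene starts, the run lies after the start in both. ACTTCC on either strand was present in 39.5% of the promoters of tested zinc finger genes with an entry and in 24.1% of all promoters. Pairs of these windows aligned over 75 to 301 columns with 69.8% to 79.5% of them identical, so the letters they share come with related sequence. The windows held 10 CpG in Zfp433, 10 in Zfp781, 6 in Zfp873 and 5 in Zfp938. Across the tested members with a promoter entry, CCAAT was found in 48.5%, against 37.9% of all promoters, and GGGCGG, the core of a GC box, in 48.0%, against 35.9%. Median GC content was 55.7% in the zinc finger promoters and 52.7% in all promoters.

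**Figure D4:**
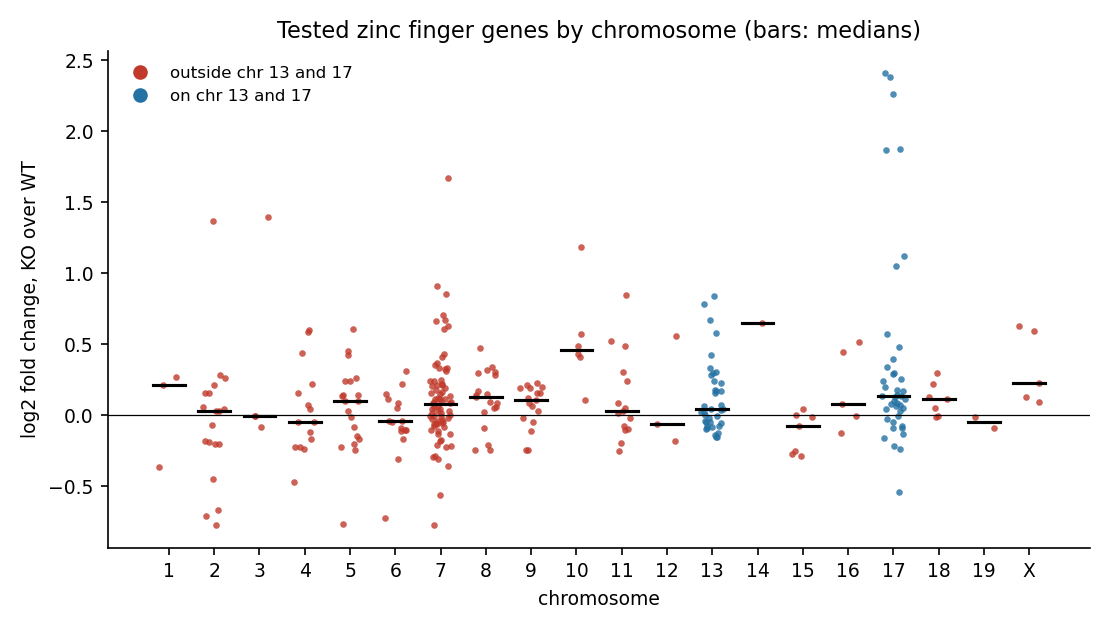
Log2 fold change of Trim28 KO over WT for each tested zinc finger gene by chromosome, with a bar at the median of each chromosome. Red points are the members and blue points are the zinc finger genes on chromosomes 13 and 17, given for comparison. The points of chromosome 10 all lie above zero, with a median of 0.46, and those of chromosome 15 lie mostly below it, with a median of -0.07.

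Of the other clusters with more than 1 tested gene, 1 on chromosome 8 and the one beside Trim28 lay wholly above 0, and the rest held genes of both directions. On chromosome 7 between Zfp553 and Zfp646 (chr7:127233061-127885996), 1 of 9 tested genes was above 0 (median -0.05). On chromosome 6 between Zfp786 and Zfp775 (chr6:47815536-48621548), 4 of 10 were above 0 (median -0.07), and between Zfp84 and Zfp146 on chromosome 7 (chr7:29768552-30169775) 10 of 13 were (median 0.10). Zfp709, Zfp882, Zfp617 and Zfp961, which lie side by side on chromosome 8, were all above 0, between 0.06 and 0.17, with the libraries of the groups overlapping in all 4. On chromosome 15, 6 of 7 tested members were below 0, where 50.4% of all rows were above 0. Among these members 3, Zfp7 and Zfp622 included, had groups apart with Trim28 KO lower, against 9.58% of all rows. Of the 76 tested members on chromosome 7, 47 were above 0, with a median of 0.08.

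Trim28 itself lies among zinc finger genes on chromosome 7 (chr7:13024152-13031032). Of the 9 members within 2 Mb of it, 7 were tested (Zfp446 and Zscan22 were too low), and all 7 were higher in Trim28 KO cells, with none past the threshold by limma or limma-voom. Zscan18 stood at 0.67 ± 0.16 log2, Zfp551 at 0.41 ± 0.15, Zfp128 at 0.33 ± 0.12, Zfp606 at 0.31 ± 0.14, Zfp324 at 0.20 ± 0.13, Zfp329 at 0.17 ± 0.09 and Zfp110 at 0.15 ± 0.08 (SE). Zfp110, also called Nrif, encodes a protein that binds the neurotrophin receptor p75. It had 5637, 6313 and 5935 normalized reads in Trim28 KO cells, against 5309, 5475 and 5310 in WT cells. Its groups were apart, with a small difference for a gene of high level. The groups were apart in 5 of the 7, against 9.21% of all rows, and 3 had an unadjusted p under 0.05, against 12.7% of all rows. The median of the 7, 0.31, was 0.18 without Trim28 KO library 2, 0.35 without Trim28 KO library 3 and 0.16 among the libraries without Y-linked reads, with all 7 above 0 each time. Their starts lay between 58.3 and 612 kb from that of Trim28, all on its lower-coordinate side.

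The other genes in the same 2 Mb did not move in 1 direction. Of 8 tested, 4 were above and 4 below 0, with a median of -0.02. Ube2m, which encodes a NEDD8-conjugating enzyme, stood at -0.52 ± 0.22 (SE, adjusted p = 0.369). The median of the 69 tested members farther away on chromosome 7 was 0.04, with 40 above 0, against 0.31 for the 7 near Trim28. The difference between these sets was not tested.

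**Figure D5:**
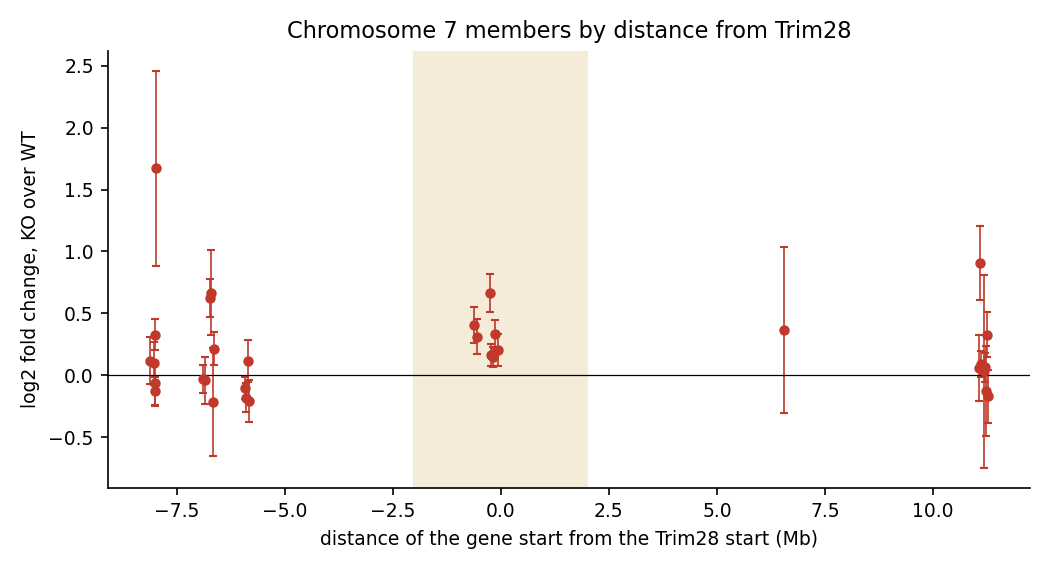
Log2 fold change of Trim28 KO over WT (vertical axis, error bars SE) against the distance of a gene's start from that of Trim28 in Mb (horizontal axis), for tested zinc finger members on this part of chromosome 7. The shaded band is the 2 Mb on either side of Trim28. All 7 points in the band lie above zero, from 0.15 to 0.67, while the points outside it lie on both sides.

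Among zinc finger proteins with known silencing roles, 4 were tested, and none passed by limma or limma-voom and 1 had an unadjusted p under 0.05. That gene was Zfp445, a KRAB protein that keeps methylation at imprinted regions, with 9799, 10722 and 9882 normalized reads in Trim28 KO cells, against 8703, 9248 and 8655 in WT cells, at 0.19 ± 0.08 (SE, adjusted p = 0.375). Zfp809, which binds the primer-binding site of murine retroviruses, had 312.0, 361.4 and 210.4 in Trim28 KO and 239.8, 305.9 and 234.0 in WT, and the groups overlapped. Zfp932, a KRAB protein that acts on endogenous retroviruses, stood at 0.03 ± 0.18, and Zfp638, which recruits the HUSH complex to unintegrated retroviral DNA, at -0.04 ± 0.13. Zfp819 had too few reads to be tested, with at most 5.58 normalized reads in any library.

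Members with general or RNA-related roles numbered 12 tested, of which none passed by limma or limma-voom and 1, Zfp622, had an unadjusted p under 0.05. Their median was -0.04, 5 were above 0 and 7 below. Zfp207, which helps chromosomes attach to the spindle, had 1267, 1517 and 1891 normalized reads in Trim28 KO cells, against 1396, 1320 and 1195 in WT cells, and the groups overlapped. Zfp148, the factor ZBP-89, stood at 0.08 ± 0.11 (SE), Zfp143, an activator of transcription, at 0.11 ± 0.09, Zfp91, a ubiquitin ligase, at -0.01 ± 0.10, and Zfp593, which acts in ribosome assembly, at -0.22 ± 0.13. Zfp326, a splicing-related protein of the DBIRD complex, had 235.6, 209.8 and 216.8 in Trim28 KO and 172.9, 195.9 and 192.3 in WT, at 0.24 ± 0.14 (adjusted p = 0.525). Zfp410, which activates Chd4, stood at -0.18 ± 0.18.

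Members known from lymphocytes did not pass by limma or limma-voom either, and none of the 4 tested had an unadjusted p under 0.05. Zfp335, which is needed for the maturation of T cells leaving the thymus, had 5222, 4120 and 4273 normalized reads in Trim28 KO cells, against 4125, 4287 and 4627 in WT cells. The groups overlapped, at 0.06 ± 0.11 (SE, 95% interval -0.19 to 0.30). Zfp608 stood at 0.05 ± 0.18, Zfp260 at -0.08 ± 0.11 and Zfp35 at 0.22 ± 0.23. Zfp521 was too low to test. Of the 10 genes listed for the early embryo and germ line, Zscan2 was the 1 found among the members, at 0.05 ± 0.10.

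By name group, Zscan and Zkscan genes were few. Of 7 Zscan genes 6 were tested, with log2 fold changes from -0.17 to 0.67 and Zscan18 highest. Of 7 Zkscan genes 5 were tested, from -0.24 to 0.22. None in either group passed by limma or limma-voom, and 1 Zscan and no Zkscan gene had an unadjusted p under 0.05.

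Levels between genes were compared as normalized reads per kb of transcript, using the length of the GENCODE M21 transcript paired with each accession, which 239 of the 240 tested members had. They ranged from 2.86 to 2324 per kb, with a median of 176 and quartiles of 34.5 and 493. Zfp292 was highest at 2324 ± 205 normalized reads per kb (SD over all 6 libraries), followed by Zfp260 at 1774 ± 158. Then came Zfp330, a nucleolar protein, at 1577 ± 239, Zfp110 at 1577 ± 110, Zfp445 at 1535 ± 128 and Zfp263 at 1457 ± 107. The distance from Zfp292 to Zfp260 exceeded the SD of either, while each of the 4 genes below them differed from the next in order by less than the SD of either. By library, Zfp292 had 24370, 26471 and 20662 normalized reads in Trim28 KO cells and 23050, 23046 and 21662 in WT cells. The groups overlapped, and so they did for Zfp260, Zfp330 and Zfp263 but not for Zfp110 or Zfp445.

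The 57 members that were not tested had means from 0.119 to 9.74 normalized reads, with a median of 2.09, and none was at 0 in all 6 libraries. Zfp219, the highest of them, had 7.85, 10.2 and 11.96 in Trim28 KO cells and 12.5, 6.60 and 9.27 in WT cells. Zfp768 stood out by a single library, with 5.71, 1.46 and 37.5 in Trim28 KO and 2.79, 1.10 and 4.63 in WT. Zfp536 had 0.714, 2.91 and 16.7 in Trim28 KO and 4.18, 13.2 and 4.63 in WT. In both genes the high Trim28 KO value was in library 3. These 2 genes are named because of their values.

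Zinc finger genes on chromosomes 13 and 17 give a point of comparison. Of 80 tested there, 7 rose and none fell, or 8.75%, against 1.51% of all rows called and 1.19% as rises (2 had groups apart with Trim28 KO lower, and limma-voom called none lower). All 7 lay on chromosome 17, where 42 were tested. On chromosome 13, none of 38 passed by limma or limma-voom, 3 had an unadjusted p under 0.05, and the median was 0.04. The medians were 0.13 for chromosome 17 and 0.06 for the genes elsewhere. Whether the share of calls differs between these sets was not tested, and among the libraries without Y-linked reads 1 gene was called in place of 7.

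The proteins that the family works with were listed separately, as 37 genes of the corepressor complex and its partners, of which 29 were tested. Apart from Trim28, which fell, 3 rose and 25 did not pass, where 1.51% of all rows were called. With limma-voom, where 126 of all 13022 rows rose and 34 fell, 2 of the partner genes rose, and Trim24 did not pass (adjusted p = 0.133). Trim24, a relative of Trim28, had 108.5, 110.8 and 35.9 normalized reads in Trim28 KO cells, against 11.2, 6.60 and 7.72 in WT cells (3.04 ± 0.48 log2, SE, adjusted p = 0.0170). Morc3, an ATPase of nuclear bodies, had 27017, 38461 and 25598 in Trim28 KO and 11387, 9972 and 9873 in WT (1.52 ± 0.15, adjusted p = 0.00129). Resf1, which takes part in silencing of retroviral elements with Setdb1, had 499.1, 642.6 and 395.3 in Trim28 KO and 104.6, 110.0 and 88.1 in WT (2.31 ± 0.20, adjusted p = 0.00054). All 3 had Trim28 KO values well above every WT library, and larger estimates than Zfp354c or Zfp365. Trim24 did not pass without Trim28 KO library 2 (2.77, adjusted p = 0.111) or among the libraries without Y-linked reads (2.96, adjusted p = 0.334), where Morc3 (1.41, adjusted p = 0.0192) and Resf1 (2.16, adjusted p = 0.0398) did.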

How the data were processed

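RNA from sorted naive CD4 T cells was sequenced on a HiSeq2500 with paired 100 bp reads, per the labels' protocols. The tools STAR, HTSeq and DESeq2 and the build mm10 are named, without versions or roles, per the submitters' processing notes. The authors deposited 1 table of 19048 rows by 6 libraries on a log10 scale. Each value turned out to be the log10 of 1 plus reads divided by a size factor, since 100% of the values gave whole reads within 0.01. RefSeq named 18811 rows and GENCODE M21 104, and 133 rows, with 2.70% of the normalized reads, had no symbol. Where several rows shared a symbol, the one with the highest total was kept for the description.

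Values were tested as log2(normalized reads + 1) on rows with a mean of at least 10, with limma 3.58.1 in R 4.3.3 (empirical Bayes with trend, two-sided), Trim28 KO minus WT, and adjusted by Benjamini-Hochberg over 13022 rows at 0.05. Fold changes on this scale understate low genes. The code was tested on simulated data. Antisense reads cannot be told apart, since the sources used here give no strand setting. Named genes are those called, the next by p to 24, the 6 highest per kb, those within 2 Mb of Trim28, the role lists and the nearest tested neighbours. The members and lists were chosen with earlier results of these data known. Alternatives covered pseudocount, low-value filter, scaling, variance model, replicate block, libraries left out, summed rows and a Y-linked covariate. Promoter pairs were aligned with Biopython 1.88.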

Additional observations from a re-analysis of the deposited data

How the results depend on the processing

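Of the 240 genes, 2 were called under every alternative except 3. These were 0 among the libraries without Y-linked reads, 1 without the mean-variance trend, and 7 without Trim28 KO replicate 3. Leaving out 1 library thus gave 2 to 7. Among the libraries without Y-linked reads, 11 members had an unadjusted p under 0.05 (4.56%, against 5.39% of all rows). That alternative was chosen after seeing the data. All rows called, 196 here, came to 37 without the libraries that hold Y-linked reads, 124 without the trend, 111 at an adjusted p under 0.01 and 113 to 553 on leaving out 1 library (113 without Trim28 KO replicate 2, 553 without Trim28 KO replicate 3, 124 without WT replicate 1 and 127 without WT replicate 3). The zinc finger genes on chromosomes 13 and 17 came to 1 without the libraries that hold Y-linked reads and to 5 to 9 on leaving out 1 library, and the corepressor genes to 3 to 5. The causes were not tested, beyond the smaller number of libraries.

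For single named genes, 941 values kept their direction and call, 5 passed only under an alternative, 3 no longer passed and 20 changed sign, all 20 in genes that did not pass. On leaving out 1 library the sign changed, with ranges of -0.0093 to 0.18 for Zfp148, -0.0098 to 0.38 for Zfp809, -0.0088 to 0.17 for Zfp292, -0.049 to 0.12 for Zfp335, -0.038 to 0.097 for Zscan2, -0.16 to 0.066 for Zfp638, -0.014 to 0.15 for Zfp608, -0.15 to 0.15 for Zfp932 and -0.088 to 0.060 for Zfp91. The other sign changes were Zfp410 with rows summed (0.0085), Zfp809 (-0.062) and Zfp932 (-0.046) without the Y-linked libraries, Zfp638 (0.014) and Zfp91 (0.044) with equal totals, and Zfp608 (-0.048) after quantile normalization.

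With the replicate block 2 zinc finger genes and 175 rows in all were called. Whether the numbers pair the samples could not be settled with 3 libraries per group. Deviations of same-numbered libraries correlated at -0.31, 0.26 and 0.36. Among the Trim28 KO libraries, replicates 2 and 3 correlated best with their own number and replicate 1 did not. The alternative restricted to proteins with a KRAB domain was not run. For the 35 genes under 50 normalized reads, depth limits what could be seen.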

Other observations

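For 29 of the zinc finger genes the table held further rows, 34 in all, from other RefSeq transcripts. Of these rows, 24 of 22 genes could be tested. By limma none passed, none had an unadjusted p under 0.05, and limma-voom called none. The log2 fold change was above 0 for 16 and below 0 for 8, with a median of 0.07. The further row of Zfp606, the gene near Trim28, had 193.5, 185.1 and 163.4 normalized reads in Trim28 KO cells, against 164.5, 134.3 and 118.2 in WT cells, at 0.39 ± 0.17 (SE, adjusted p = 0.413), beside 0.31 ± 0.14 for its main row. Zfp410 had 2 further tested rows. They stood at 1.24 ± 0.63 (adjusted p = 0.471) and at 0.02 ± 0.32 (adjusted p = 0.985), while its main row stood at -0.18 ± 0.18. These 2 genes were picked after their values were seen.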
